A study of Mus musculus with 8 samples.

Results

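The transcripts described here encode subunits of AMP-activated protein kinase (AMPK) and the core and regulators of mechanistic target of rapamycin complex 1 (mTORC1). They were taken by gene name: every non-control probe on the array whose name was Prkaa1, Prkaa2, Prkab1, Prkab2, Prkag1, Prkag2, Mtor, Rptor, Tsc1 or Ddit4. This gave 10 genes on 11 probes, of 22237 gene names on 39429 probes, with Mtor carrying 2 probes and each of the others 1. None of the 10 genes passed at a limma adjusted p under 0.05 between fasted and fed brain at its brightest probe. Every one of their 95% confidence intervals left out a 1.5-fold change in either direction, but smaller differences are not excluded. These intervals are for RNA of brain tissue, and a larger change confined to a part of it is not excluded either. A second Mtor probe, for another transcript and close to background, was detected above background in all 4 fasted samples and in none of the 4 fed ones, with a size of difference that depended on how background was treated.

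AMPK is a heterotrimeric kinase with a catalytic alpha, a scaffolding beta and a nucleotide-binding gamma subunit. It is switched on when AMP and ADP rise against ATP and when an upstream kinase phosphorylates the alpha subunit, and in the hypothalamus it is known for its part in the control of food intake. mTORC1, a complex of the kinase mTOR with raptor and other subunits, drives protein synthesis and restrains autophagy when amino acids and growth factors are plentiful, and AMPK restrains it through the TSC complex and through raptor. Much of this control is by phosphorylation, which an expression array does not measure.

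The samples were total RNA from mouse brain, labelled with Cy3 and hybridised to single-colour Agilent arrays. One group came from mice fasted for 17 h and the other from fed mice, with 4 arrays each and 8 in all. The labels used here give tissue and feeding state only, and no line, age, transgene or other treatment. They do not say whether each sample came from a separate animal, and p-values here reflect only how far these samples lie apart, a distance that may be in part technical.

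The 75th percentile of an array was 1651 to 1944 in intensity units, and 24567 to 27220 probes were well above background. No spot was saturated, and arrays of a group correlated at r = 0.994 to 0.998 over the kept probes. The arrays lay on 2 slides with 2 of each group, the fasted samples always at positions 1 and 3 and the fed samples at 2 and 4, so that position and fasting cannot be told apart. All 39 markers listed for neurons, glia, endothelium and choroid plexus were well above background on every array. Some markers of glial and vascular cells were lower in fasted brain at a limma adjusted p under 0.05. These were 4 of 6 for microglia, 3 of 6 for oligodendrocytes and 2 of 5 for endothelium, beside 8.96% of all genes. In the other direction, 1 oligodendrocyte marker showed a log2 difference of 0.30 and 1 endothelial marker 0.14, and neither passed. The summed linear signal of the oligodendrocyte markers, relative to the 75th percentile, was 85.7 to 94.6 in fasted and 95.7 to 103 in fed samples. That of the microglial markers overlapped, at 42.6 to 47.7 and 44.7 to 49.1. So did that of the endothelial markers, at 7.54 to 8.48 in fasted and 8.21 to 8.72 in fed samples. Of the astrocyte markers 1 of 6 was lower and 1 of 4 oligodendrocyte precursor markers higher, and 0 of 4 passed for choroid plexus and ependyma. None of the 8 neuronal markers passed, and their sum was 179 to 190 in fasted and 170 to 181 in fed samples. In whole tissue, fewer cells of a type and less RNA per cell cannot be told apart, and the part of cell composition in the values that follow was not tested.

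Levels are log2 signals minus the 75th percentile of their array, so 0 is the brightness of that percentile. They compare samples for 1 probe and do not rank probes against each other. Groups were compared by limma over 26066 probes with Benjamini-Hochberg adjustment, and a probe passed at an adjusted p under 0.05. Of 15995 genes tested, 18.4% passed, 9.46% upward and 8.96% downward in fasted brain. Of the 10 genes, 0 passed, and 0 had an unadjusted p under 0.05. Their adjusted p-values ran from 0.164 to 0.982. Their median log2 difference, fasted minus fed, was 0.04 against -0.01 over all genes. Of the 10, 8 were positive and 2 negative, beside 7628 positive and 8367 negative over all genes. The median size of the difference was 0.05, against 0.09 over all genes.

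**Figure D1:**
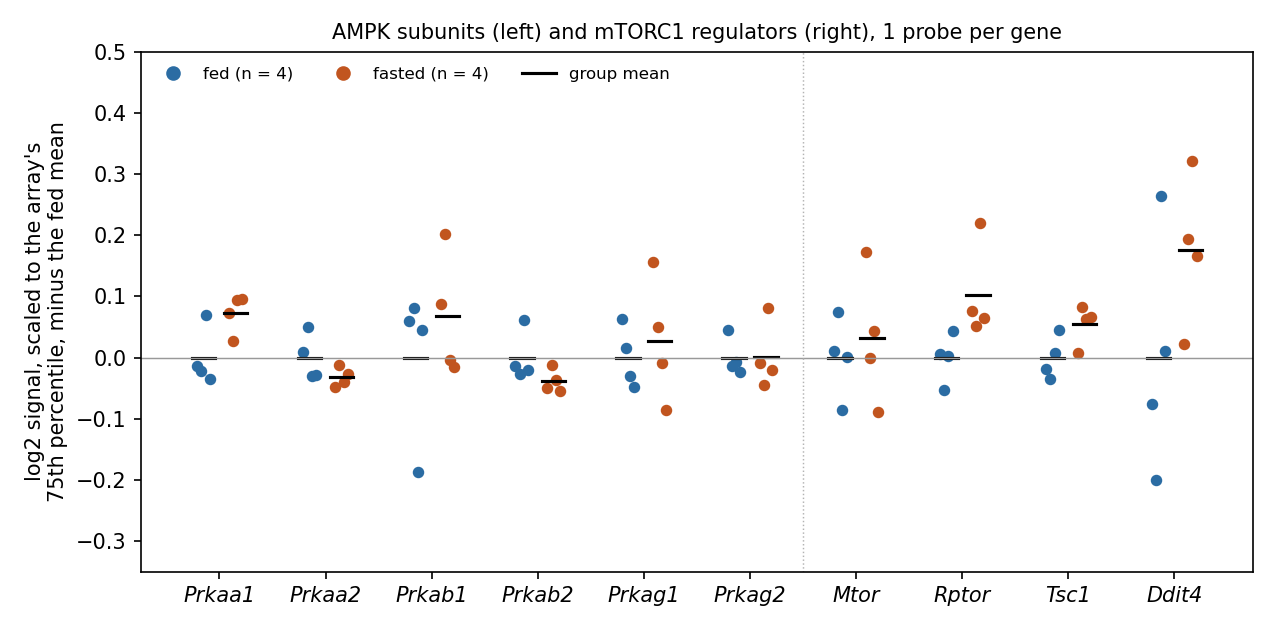
Scaled log2 signal of the brightest probe of each of the 10 genes, minus the mean of the fed samples of that gene, with 1 point a sample (4 fed, 4 fasted) and the group mean as a bar; AMPK subunits are left of the dotted line and mTORC1 genes right of it. The fasted and fed points overlap for 9 of the 10 genes; Rptor is the exception.

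Of the catalytic subunits, Prkaa1 encodes alpha1, the isoform found in most tissues. Its probe, for NM_001013367, lies at chr15:5131426-5131485 in mm9, the build of the array design. Fasted replicates 1 to 4 read -0.11, -0.16, -0.09 and -0.09, and fed replicates 1 to 4 read -0.20, -0.20, -0.11 and -0.22. The fed readings were lower except for fed replicate 3, which lay within the fasted range. Means were -0.11 ± 0.03 and -0.18 ± 0.05 (SD, n = 4 each), a fasted to fed ratio of 1.05 (95% confidence interval 0.993 to 1.11, limma adjusted p = 0.202).

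Prkaa2 encodes alpha2, the other catalytic isoform, and was read by a probe for NM_178143 at chr4:104707708-104707767. It gave 0.62, 0.66, 0.63 and 0.64 in fasted and 0.68, 0.72, 0.64 and 0.64 in fed samples. Fed replicates 1 and 2 were the highest and the others lay together across both groups. The means, 0.64 ± 0.02 and 0.67 ± 0.04 (SD, n = 4 each), gave a ratio of 0.978 (0.931 to 1.03, limma adjusted p = 0.523).

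The beta subunits hold the trimer together and carry a carbohydrate-binding module. Prkab1 (beta1; NM_031869, chr5:116464650-116464709) read -2.68, -2.57, -2.77 and -2.78 in fasted and -2.71, -2.69, -2.95 and -2.72 in fed samples. Fed replicate 3 was the lowest of all, and the remaining 7 readings were intermingled. The ratio was 1.05 (0.931 to 1.18, limma adjusted p = 0.569). Prkab2 (beta2; NM_182997, chr3:97476843-97476902) read 0.50, 0.54, 0.51 and 0.49 in fasted and 0.53, 0.52, 0.61 and 0.53 in fed samples. Here fed replicate 3 was the highest, and the groups again overlapped. The ratio was 0.974 (0.925 to 1.03, limma adjusted p = 0.449).

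The gamma subunits bind AMP, ADP and ATP. Prkag1 (gamma1; NM_016781, chr15:98643402-98643461) was printed in 10 spots on each array, whose log2 values had an SD of 0.021 to 0.054 within an array. Spot averages were 1.21, 1.10, 1.05 and 0.97 in fasted and 1.12, 1.07, 1.02 and 1.01 in fed samples. The fasted group held both the highest and the lowest reading, so that its spread, an SD of 0.10 against 0.05 in the fed group, covered the fed values. The ratio was 1.02 (0.933 to 1.11, limma adjusted p = 0.771). Prkag2 (gamma2; NM_145401, chr5:24368591-24368650) read 2.47, 2.44, 2.56 and 2.46 in fasted and 2.53, 2.47, 2.47 and 2.46 in fed samples. Both means were 2.48, and the ratio was 1.001 (0.943 to 1.06, limma adjusted p = 0.982).

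Whether isoforms of a subunit moved apart was tested on the log2 difference between the pair within each array. For Prkaa1 minus Prkaa2 this was -0.75 ± 0.04 in fasted and -0.85 ± 0.07 in fed samples (SD, n = 4 each), 0.10 higher in fasted (exact two-sided permutation p = 0.0571, adjusted over the 3 pairs 0.171). Taken between same-numbered fasted and fed arrays, it was 0.14, 0.11, 0.03 and 0.13, positive in 4 of 4 pairs (exact paired permutation p = 0.125, the smallest that 4 pairs allow, adjusted 0.375). For Prkab1 minus Prkab2 the shift was 0.11 (exact permutation p = 0.4, adjusted 0.6). For Prkag1 minus Prkag2 it was 0.03 (exact permutation p = 0.686, adjusted 0.686), and -0.02 without fasted replicate 1. With 4 arrays against 4 the smallest p is 0.0286, and a pair that reached it alone would have an adjusted p of 0.0857. No pair passed, and 1 pair alone could not have.

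Of the mTORC1 genes, Mtor encodes the kinase itself. One of its probes was designed on NM_020009, with its first base at chr4:147931250 and its last at chr4:147931309 on the plus strand. The other was designed on the Ensembl transcript ENSMUST00000123566 and lies at chr4:147829016-147829075, also on the plus strand and 102 kb upstream. The 3′ 30 bases of both 60-base probes are printed because the pair gave different results. Capitals mark the hexamer AATAAA, known as the canonical polyadenylation signal.
Mtor NM_020009 probe, bases 31 to 60: aagaaaactcatcataaacattgctgacag
Mtor ENSMUST00000123566 probe, bases 31 to 60: catctctatcAATAAAaatgtatcaattag
AATAAA stood at bases 41 to 46 of the second probe and nowhere in the first. It occurred on the printed strand in 12.6% of all 39429 probes, and its reverse complement TTTATT in 4.03%. A hexamer match is a description of the probe and not evidence of a cleavage site. The second probe was 26.7% G and C, a content at or under which 1.19% of probes lay, against 35% for the first. The longest run that any of the 11 probes shared with another was 7 to 10 bases.

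The NM_020009 probe was well above background on all 8 arrays. It read -0.11, -0.28, -0.24 and -0.37 in fasted and -0.27, -0.20, -0.37 and -0.28 in fed samples. The lowest reading of each group was -0.37, and the groups overlapped. Means of -0.25 ± 0.11 and -0.28 ± 0.07 (SD, n = 4 each) gave a ratio of 1.02 (0.927 to 1.13, limma adjusted p = 0.762).

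The ENSMUST00000123566 probe was dim. Its processed intensity was 131 to 141 in fasted and 52.9 to 75.8 in fed samples, and it was well above background on all 4 fasted arrays and on 0 of 4 fed arrays, so that it passed the filter on dim probes through the fasted group alone. The scaled values were -3.79, -3.65, -3.78 and -3.78 in fasted samples and -4.93, -4.83, -5.00 and -4.56 in fed samples. Every fasted reading lay above every fed reading. Since the fed samples were not well above background, the fasted mean of -3.75 was set against a floor of -4.65. On each fed array the floor takes either this probe's reading or the dimmest signal that passed as well above background. Whichever was brighter was used, and the 4 were averaged. On this scale the fasted mean lay 1.87-fold above the floor. That is a distance to a detection limit and not a minimum size of the fasting difference. The measured log2 difference of 1.08 is one to fed values at background level. It was 0.36 when background was modelled by normexp, with an offset of 50 added to every signal, in place of the scanner's own processing. Such an offset by itself compresses differences at these intensities, and its share in the drop was not tested. The distance to the floor therefore holds for the scanner's processing only. The limma adjusted p was 0.00102 among the kept probes, of which 16.9% passed, 0.00423 with no filter on dim probes and 0.0112 under normexp. Since the fasted arrays alone brought the probe through the filter, these values describe it and support no size.

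The same pattern of detection, 4 fasted and 0 fed arrays, was shown by 15 of the 39429 probes (0.038%), and the reverse by 5 (0.0127%). Of the 15, 12 passed in the limma fit, so that a pass adds little to the pattern itself. The measured difference was 1.16 on slide 1 and 0.997 on slide 2, where 2 arrays a group left limma adjusted p-values of 0.116 and 0.218.

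Set against each other within an array, the ENSMUST00000123566 probe minus the NM_020009 probe gave -3.68, -3.37, -3.55 and -3.42 in fasted and -4.66, -4.62, -4.63 and -4.28 in fed samples. The groups did not overlap, with a shift of 1.05, or 0.35 under normexp. This contrast was chosen after the values of both probes had been seen and its fed side was at background level, so it is a description. A probe for Angptl7 on the minus strand lay between the Mtor probes and was well above background on 1 of 8 arrays. Which Mtor exon, intron or untranslated region lies under each probe was not analysed here.

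**Figure D2:**
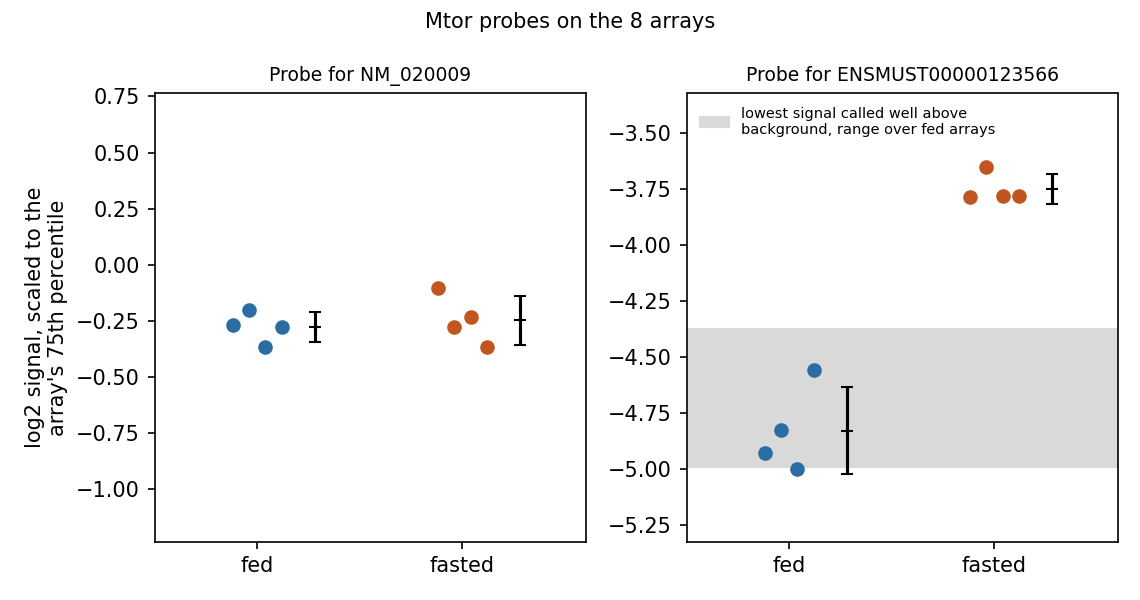
Scaled log2 signal of the Mtor probes on each array, 4 fed and 4 fasted points a panel with the mean and SD of each group beside them; the grey band is the dimmest signal that passed as well above background on the fed arrays. The NM_020009 readings overlap between -0.37 and -0.11; the ENSMUST00000123566 readings are -3.79 to -3.65 in fasted samples and -5.00 to -4.56 in fed samples, the latter not well above background.

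Rptor encodes raptor, the mTORC1 subunit that recruits substrates and is itself phosphorylated by AMPK. Its probe for NM_028898 (chr11:119760596-119760655) read 1.40, 1.38, 1.55 and 1.39 in fasted and 1.33, 1.27, 1.33 and 1.37 in fed samples. All 4 fasted readings were above all 4 fed readings, and fasted replicate 3 stood above the rest. Rptor was the 1 gene of the 10 whose groups did not overlap, which held for 26.9% of all genes tested. Means were 1.43 ± 0.08 and 1.33 ± 0.04 (SD, n = 4 each), a ratio of 1.07 (0.998 to 1.16, limma adjusted p = 0.164). Without fasted replicate 3 the log2 difference was 0.06 in place of 0.10 (limma adjusted p = 0.249).

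Tsc1 encodes hamartin, which stabilises the TSC complex that holds mTORC1 off through the GTPase Rheb. Its probe for NM_022887 (chr2:28546610-28546669) read 1.27, 1.35, 1.33 and 1.33 in fasted and 1.25, 1.23, 1.27 and 1.31 in fed samples. Fasted replicates 2, 3 and 4 were the highest of the 8, while fasted replicate 1 lay among the fed values. The ratio was 1.04 (0.985 to 1.10, limma adjusted p = 0.29).

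Ddit4 encodes REDD1, a stress- and glucocorticoid-induced inhibitor of mTORC1 that acts through the TSC complex. Its probe for NM_029083 (chr10:59412486-59412545) read 3.50, 3.67, 3.80 and 3.64 in fasted and 3.40, 3.28, 3.74 and 3.49 in fed samples. Fed replicate 3 lay within the fasted range, and the other fed readings were below every fasted one. Means of 3.65 ± 0.12 and 3.48 ± 0.20 (SD, n = 4 each) gave a ratio of 1.13 (0.957 to 1.33, limma adjusted p = 0.28), the widest interval of the 10 genes. It was the 1 gene whose interval reached 1.2-fold; the other 9 left it out. Without fed replicate 3 the log2 difference was 0.26 in place of 0.18 (limma adjusted p = 0.0762).

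**Figure D3:**
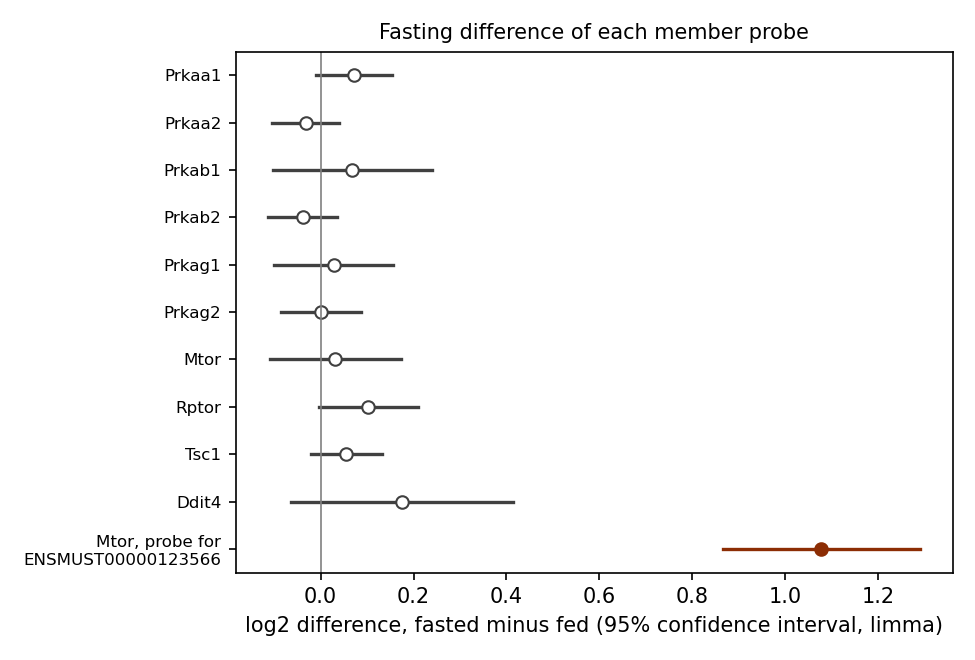
Log2 difference, fasted minus fed, of the 11 probes with 95% confidence intervals from limma (n = 4 per group). The filled point had an adjusted p under 0.05, but it came through the filter by the fasted arrays alone, so the mark is a description. The 10 brightest probes lie between -0.04 and 0.18, and the ENSMUST00000123566 probe of Mtor lies at 1.08, a measured difference to a fed group that was not well above background.

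The 3 genes whose levels followed those of Rptor, which had the smallest p of the 10, most closely over the 8 arrays were Eif3d, Ptp4a2 and Ctps, with Pearson r of 0.988, 0.985 and 0.985. Eif3d encodes a translation initiation factor subunit and Ctps a CTP synthase. All 3 genes were highest in fasted replicate 3, as Rptor was, and the share of that array in the correlations was not tested. The arrays of a slide share hybridisation conditions, and the 3 were the closest of 15994 genes, so that these values are a description. None of the 3 passed, with limma adjusted p-values of 0.326, 0.159 and 0.213.

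The other genes of the pathway were followed through 10 lists, of which 100 genes were tested. In them 19 passed, 15 higher and 4 lower in fasted brain, a share of 19% beside the 18.4% over all genes. The count was 12 with the replicate number as a block, 8 without fasted replicate 2, 9 without fasted replicate 1 and 12 without fed replicate 1. Background correction by normexp gave 8, and no filter on dim probes gave 10. Acacb, Ppargc1a, Sesn1, Eif4ebp1 and Akt2 kept their call in all 18 alternative fits to 7 or 8 arrays, and the other 14 lost it in at least 1. The counts by list below stand beside 9.46% of all genes passing upward and 8.96% downward, and no list was tested as a set. Fasted and fed readings did not overlap for 32 of the 100 genes, beside 26.9% of all genes tested.

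Upstream of AMPK, 2 of 8 activating kinases and partners rose and 0 fell, with a median log2 difference of 0.04. Strada, the pseudokinase partner of LKB1, was higher by 0.16 (limma adjusted p = 0.0308) and Camkk1, a calcium-dependent activator, by 0.14 (adjusted p = 0.0356). Both calls were lost without fasted replicate 1, 2 or 3 or fed replicate 1 or 4, that of Strada also without fed replicate 3 and that of Camkk1 also without fed replicate 2. Their adjusted p-values reached 0.0777 and 0.0896. Camkk2, the main calcium-dependent AMPK kinase in brain, showed a difference of -0.12 (limma adjusted p = 0.0816), and 0.02 at a dimmer probe (adjusted p = 0.866).

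Of the 12 tested AMPK-related kinases, 0 rose and 2 fell (median -0.07). Sik2, a salt-inducible kinase, read -1.18, -1.20, -1.14 and -1.35 in fasted and -0.80, -0.89, -0.74 and -0.65 in fed samples. All fasted readings were lower, by 1.36-fold (1.23 to 1.51, limma adjusted p = 0.00474). A dimmer Sik2 probe showed a log2 difference of 0.04 (adjusted p = 0.866), so the fall rests on 1 of 2 probes, and on the mean of both it was -0.20 (adjusted p = 0.124). Mark2, a microtubule-affinity regulating kinase, showed -0.11 (adjusted p = 0.0759). Snrk fell by 0.15 on the log2 scale (limma adjusted p = 0.03), and its adjusted p was above the threshold in 10 of the 18 fits, those without fasted replicate 1, 2 or 4 or fed replicate 2 or 4 among them, reaching 0.141. A dimmer Snrk probe showed -0.13 (limma adjusted p = 0.439).

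Among 11 AMPK substrates and effectors, 4 rose and 0 fell (median 0.03). Acacb, the mitochondrial acetyl-CoA carboxylase whose malonyl-CoA inhibits fatty acid import, read -1.74, -1.93, -1.88 and -1.92 in fasted and -2.42, -2.14, -2.37 and -2.38 in fed samples. The groups were apart by more than their spread, 1.38-fold (1.23 to 1.54, limma adjusted p = 0.00605). Mlycd, whose product removes malonyl-CoA, rose 1.18-fold (1.08 to 1.28, adjusted p = 0.0193, 0.0549 and 0.0523 without fasted replicate 1 or 2, and 0.125 under normexp). Ppargc1a, a coactivator of mitochondrial genes, rose 1.20-fold (1.12 to 1.28, adjusted p = 0.00776), while a dimmer probe of it showed 0.06 on the log2 scale (adjusted p = 0.459). Tbc1d4 was higher by 0.22 on the log2 scale (limma adjusted p = 0.0266), a call lost in 9 of the 18 fits.

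Around mTOR itself, 1 of 7 further subunits of its complexes rose and 0 fell (median -0.04). That gene was Prr5, an mTORC2 subunit, higher by 0.21 (limma adjusted p = 0.0447), a call lost in 11 of the 18 fits, including those without fasted replicate 1, 2 or 3 or fed replicate 1, 2 or 4. Its relative Prr5l showed -0.24 at its brightest probe (adjusted p = 0.058), with -0.57 (adjusted p = 0.00323) and -0.26 (adjusted p = 0.0449) at dimmer ones. Akt1s1, the mTORC1 inhibitor PRAS40, showed -0.09 (adjusted p = 0.241). Of 5 further genes of the TSC complex, Rheb and the Ddit4 family, 0 passed. At their brightest probes the median was 0.07 and all 5 were positive, the lowest at 0.01. Rhebl1 showed 0.17 (limma adjusted p = 0.13), Ddit4l 0.10 (adjusted p = 0.229) and Rheb 0.07 (adjusted p = 0.576). Dimmer Rheb probes showed -0.02 (adjusted p = 0.879) and 0.04 (adjusted p = 0.933).

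Amino acids reach mTORC1 through the Rag GTPases at the lysosome. Of 13 genes of the Rag and Ragulator group, 1 rose and 1 fell (median 0.02): Fnip2, a folliculin partner, by 0.22 (limma adjusted p = 0.0375), and Lamtor4, a Ragulator subunit, with a difference of -0.14 (adjusted p = 0.0249). Each call was lost in 9 of the 18 fits, with adjusted p-values up to 0.13 and 0.0698. Fnip2 lost it without fasted replicate 2, 3 or 4 or fed replicate 1, 3 or 4, and Lamtor4 without fasted replicate 1, 2 or 4 or fed replicate 1, 2 or 3. Slc38a9, the lysosomal arginine sensor, showed -0.09 (adjusted p = 0.0756). Of 11 GATOR and KICSTOR genes 1 rose and 0 fell (median -0.04), Mios, a GATOR2 subunit, by 0.21 (adjusted p = 0.0187, and up to 0.0876 without fasted replicate 1, 2 or 4 or under normexp). Kptn, a KICSTOR subunit, showed -0.14 (adjusted p = 0.0626) and Depdc5, a GATOR1 subunit, -0.10 (adjusted p = 0.0763), with 0.17, -0.27 and -0.34 at its other probes, none of which passed.

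Of the 6 amino acid sensors, 2 rose and 0 fell (median 0.10), both of them sestrins, stress-induced proteins that include the leucine sensor Sesn2. The other sestrin listed, Sesn3, showed -0.06 (limma adjusted p = 0.571). Sesn1 read 1.64, 1.57, 1.56 and 1.61 in fasted and 1.32, 1.43, 1.41 and 1.39 in fed samples. That is 1.15-fold higher (1.09 to 1.22, limma adjusted p = 0.01), with all fasted readings above all fed ones. Sesn2 read 0.44, 0.56, 0.55 and 0.51 in fasted and 0.35, 0.28, 0.20 and 0.26 in fed samples, 1.18-fold higher (1.10 to 1.27, adjusted p = 0.0105; 0.0657 under normexp). The arginine sensor Castor1 was dim and showed 0.39 (adjusted p = 0.094), with overlapping groups.

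Downstream of mTORC1, 3 of 14 substrates and outputs rose and 0 fell (median 0.00). Eif4ebp1 encodes 4E-BP1, the translation repressor that mTORC1 phosphorylates, and read -0.97, -0.92, -0.87 and -0.88 in fasted and -1.18, -1.06, -1.17 and -1.18 in fed samples. It rose 1.18-fold (1.10 to 1.26, limma adjusted p = 0.00874), with fed replicate 2 the nearest to the fasted group. Eef2k, the kinase that slows translation elongation, read -2.75, -2.63, -2.61 and -2.86 in fasted and -3.02, -3.03, -3.21 and -3.25 in fed samples. The groups were separate, and the rise was 1.33-fold (1.18 to 1.51, adjusted p = 0.0112; 0.0679 under normexp). Dimmer Eef2k probes showed 0.58 (adjusted p = 0.0132) and 0.04 (adjusted p = 0.866). Tfe3, a lysosomal transcription factor, was higher by 0.18 (adjusted p = 0.0321), with 0.03 at its other probe (adjusted p = 0.526). Its call was lost without fasted replicate 1 or 2 or fed replicate 1, 2 or 3, with adjusted p-values up to 0.0804 over the 18 fits.

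In the PI3K and AKT input to the TSC complex 1 of 13 genes rose and 1 fell (median 0.01). Akt2, the AKT isoform tied to insulin-stimulated glucose uptake, read 2.09, 2.04, 2.29 and 2.20 in fasted and 2.45, 2.49, 2.61 and 2.55 in fed samples. It was lower in every fasted sample, by 1.29-fold (1.17 to 1.43, limma adjusted p = 0.00839). Dimmer Akt2 probes gave -0.35 (adjusted p = 0.00365), -0.29 (adjusted p = 0.00441) and -0.15 (adjusted p = 0.252), the same direction at all 4. Mapk3, the kinase ERK1, showed -0.09 at its brightest probe (adjusted p = 0.0601) and -0.14 at its other probe (adjusted p = 0.0262). Pik3r1, the regulatory subunit of PI3K, was higher by 0.14 (adjusted p = 0.0407), a call lost in 11 of the 18 fits. These 11 include every fit that left out a sample except fed replicate 2.

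**Figure D4:**
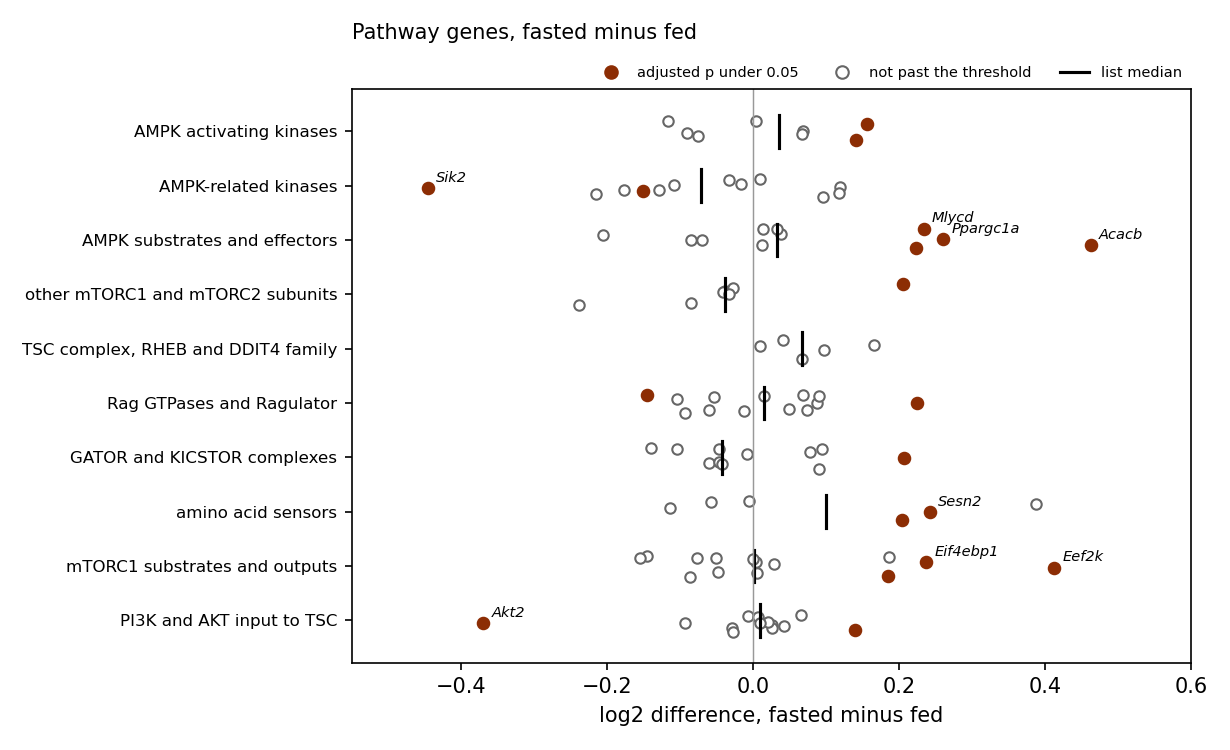
Log2 difference, fasted minus fed, of the 100 tested genes of 10 pathway lists, 1 point a gene at its brightest probe (4 arrays a group), with the list median as a bar; filled points passed at a limma adjusted p under 0.05. Acacb (0.46) and Eef2k (0.41) lie farthest to the right of those that passed, Sik2 (-0.45) and Akt2 (-0.37) farthest to the left.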

How the data were processed

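Expression was measured in 8 mouse brain samples, grouped as fasted or fed by their titles. The authors' scanner files hold a processed intensity per spot, made with Feature Extraction 11.0.1.1 per the file headers and 10.10.1.1 per the submitters' processing notes. Background method (code 7) and spatial and multiplicative detrending are as set in the headers. A deposited table of the whole series gives ratio values on a linear scale. Comparison with the scanner files shows signal over 75th percentile, divided by a factor fixed for each probe (median SD over arrays 0.000179 in log2); scale and direction follow, and the baseline is unknown. Column medians were 0.970, 0.993, 0.973 and 0.987 for fasted and 0.987, 1.02, 0.991 and 1.02 for fed samples.

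Control spots and 128 to 217 outlier spots per array were left out, signals were taken to log2 minus the array's 75th percentile, and replicate spots were averaged. Probes well above background on at least 4 of 8 arrays were kept (26066), a rule that can keep a probe seen in 1 group only. A gene took its brightest kept probe. Gene names were updated through RefSeq (GRCm38.p6, names only; 27427 probes matched by accession); coordinates are mm9 from the array design. limma 3.58.1 in R 4.3.3 (lmFit, eBayes) was used with no covariate. On simulated data for fasted against fed (26066 probes, 5 runs) it recovered 40% of 1.2-fold, 80% of 1.5-fold and 92.8% of 2-fold changes. The simulation changed a far smaller share of probes than the 16.9% that passed here, and its noise was independent between probes. These shares are therefore a check of the procedure and not the power in these data.

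The members and lists were chosen with earlier results of these data known. Named genes were all 10 members, the 3 genes of lowest p in every pathway list, and the 3 genes closest to the member of lowest p; Tbc1d4 and Angptl7 were named outside this rule. Melk was not above the filter and Kics2 matched no name. After group means were removed, a fasted array and the fed array of its number correlated at 0.18 to 0.29. Differently numbered arrays of the same slide correlated at 0.05 to 0.27, and arrays of different slides at -0.39 to -0.10. Same-numbered arrays also share a slide, so pairing by number and a shared slide cannot be told apart. The numbers, from the titles, were used as pairs only in the replicate block and the paired permutation test. Slide differences passed for 119 genes, none of the 10 among them. Alternatives were other background, scaling, filter, probe and block choices, each slide alone, and each sample left out. The normexp alternative added an offset of 50 to every signal, which compresses the differences of dim probes.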

Additional observations from a re-analysis of the deposited data

Results flagged for a closer look

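In each group of 4, a sample was singled out where its gap to the nearest other sample was large against the range of the group (Dixon's criterion at 95%). Over the 88 groups examined chance alone singles out about 1 in 20. Fed replicate 3 stood apart for both beta subunits, low for Prkab1 at -2.95 against a mean of -2.71 over the others and high for Prkab2 at 0.61 against 0.53. Their within-array difference was accordingly low there, -3.56 against -3.23. Without fed replicate 3 the Prkab1 difference between fasted and fed was 0.01 in place of 0.07.

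Fasted replicate 3 was high for Rptor, 1.55 against 1.39. Fasted replicate 2 was high for the ENSMUST00000123566 probe of Mtor, -3.65 against -3.78, a gap that is small beside the distance to the fed group. The Prkaa1 minus Prkaa2 difference was low in fasted replicate 2, -0.81 against -0.73. In the pathway lists fed replicate 2 was high for Acacb (-2.14 against -2.39) and for Eif4ebp1 (-1.06 against -1.18). Fed replicate 1 was high for Prr5l (1.48 against 1.25), fed replicate 4 for Tfe3 (1.65 against 1.55), and fed replicate 3 was low for Mapk3 (2.50 against 2.55).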

How the results depend on the processing

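The brightest probes of the 10 genes gave 0 calls in all 18 fits to 7 or 8 arrays, the reported one included. The 1 call came when the probes of a gene were averaged, which passes Mtor through its dim probe. Of 15995 genes 2946 passed, but 1915 with normexp, 1730 with no filter, and 1861 to 2543 with a sample left out (1861 without fasted replicate 1, 1951 without fasted replicate 2). Pathway list calls were 19, but 8 with normexp, 10 with no filter, 12 with the replicate block and 8 to 16 with a sample left out. Within slide 1 and within slide 2, with 2 arrays a group, limma called 0 genes and 0 list genes; at an unadjusted p under 0.05 these were 3700 and 2470 genes and 21 and 13 list genes. The replicate block gave 2558 genes and changed no call of the 10. Of the list calls it kept 11 and lost 8: Strada, Snrk, Tbc1d4, Prr5, Lamtor4, Fnip2, Tfe3 and Pik3r1.

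Differences close to 0 changed sign. Prkag2, 0.00, was -0.012 with quantile normalization, -0.042 within slide 1 and -0.025 to 0.017 with a sample left out. Prkag1, 0.03, was -0.0082 within slide 2 and -0.015 to 0.066 with a sample left out, and Mtor at NM_020009 was -0.015 to 0.072. The isoform contrast Prkag1 minus Prkag2 ran from -0.020 to 0.065, Prkaa1 minus Prkaa2 from 0.08 to 0.14 and Prkab1 minus Prkab2 from 0.02 to 0.14. With same-numbered arrays paired, a replicate block added after seeing the data, the adjusted p-values of these 3 contrasts were 0.75, 0.375 and 0.375 in that order (exact paired permutation). The slide block was not run for them. The contrast of the Mtor probes, 1.05, ran from 1.002 to 1.14, and was 0.35 with normexp. The ENSMUST00000123566 probe ran from 1.02 to 1.17 with a sample left out, had an adjusted p of 0.0112 with the replicate block, and drops out when detection on all arrays is required. The median difference over all probes was -0.01, and 0.01 with median scaling. Dimness limits Prkab1 and this Mtor probe, and 4 arrays a group limit every value.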
